A study of Rattus norvegicus with 47 samples.

Results

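The NMDA receptor subunit genes Grin1, Grin2a and Grin2b were followed in prefrontal cortex of newborn rats whose mothers were exposed to flame retardants. The members were taken by Ensembl rat ID: ENSRNOG00000011726 for Grin1, ENSRNOG00000033942 for Grin2a and ENSRNOG00000008766 for Grin2b. All 3 of 3 were among the 32883 gene IDs of the count table and among the 17135 tested. The symbols come from the member list, since the files do not pair IDs with names.

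The study compared 47 libraries from postnatal day 1. Exposed pups had mothers dosed once daily in gestation with BFR (the brominated compounds EH-TBB and BEH-TEBP, 1000 µg), OPFR (triphenyl phosphate with its isopropylated form, 1000 µg) or the whole commercial mixture FM550 (2000 µg), so FM550 was given at another dose than its parts. Control pups carry only the label Control, and their vehicle, like the strain and the route of dosing, is not given in the sources used here. Each of these 4 treatments had 6 female and 6 male libraries, except for 5 OPFR female libraries. The tissue is whole prefrontal cortex, so fewer cells of a type and less RNA per cell cannot be told apart in any value below.

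NMDA receptors are glutamate-gated channels that pass calcium once glutamate is bound and the membrane is depolarised. Every receptor contains GluN1, the obligatory subunit made from Grin1, together with other subunits, most often GluN2A (Grin2a) or GluN2B (Grin2b). In the rodent forebrain GluN2B is the GluN2 subunit known to prevail around birth, and GluN2A rises over the following weeks as synapses mature, so the balance of Grin2b to Grin2a is widely used as a developmental reading.

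Libraries held 41.1 to 73.4 M counted reads. Sample titles carry a number, and the controls numbered 1 to 7 (5 males, 2 females) differed from the rest. For 390 of 17135 genes (2.28%) their levels lay wholly outside the range of the other 40 libraries. Controls 8 to 12 are 4 females and 1 male. OPFR libraries 31 to 35, which include OPFR females 4 and 5, formed a further set apart from OPFR libraries 25 to 30. The labels give no batch or date, and both sets were found in these data, so they are described below without a test.

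Of the 3 genes, only Grin1, which encodes the obligatory subunit, had levels in controls 1 to 7 that did not overlap those of the other libraries. Levels are in CPM, the reads of a gene scaled to a common library size after TMM normalization. In controls 1 to 7 Grin1 ranged from 221 CPM to 276 CPM, with a median of 243 CPM. In controls 8 to 12 it measured 186, 186, 177, 173 and 160 CPM. All 7 of the first set lay above all 5 of the second and above every exposed library, the highest of which was 200 CPM. No overlap of this kind, with numbers 1 to 7 higher, occurred in 0.922% of genes tested (158 of 17135). Against controls 8 to 12 alone it occurred in 5.97% of genes.

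In means, Grin1 stood at 242 ± 19 CPM in controls 1 to 7 (SD, n = 7) and at 176 ± 11 CPM in controls 8 to 12 (SD, n = 5), a ratio of 1.38. The step was present in both sexes. The 2 control females of the first set measured 243 and 231 CPM against 177 ± 12 CPM in the 4 females of the second (SD, n = 4). The 5 males of the first set measured 257, 243, 221, 227 and 276 CPM against 173 CPM in the single male of the second.

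**Figure D1:**
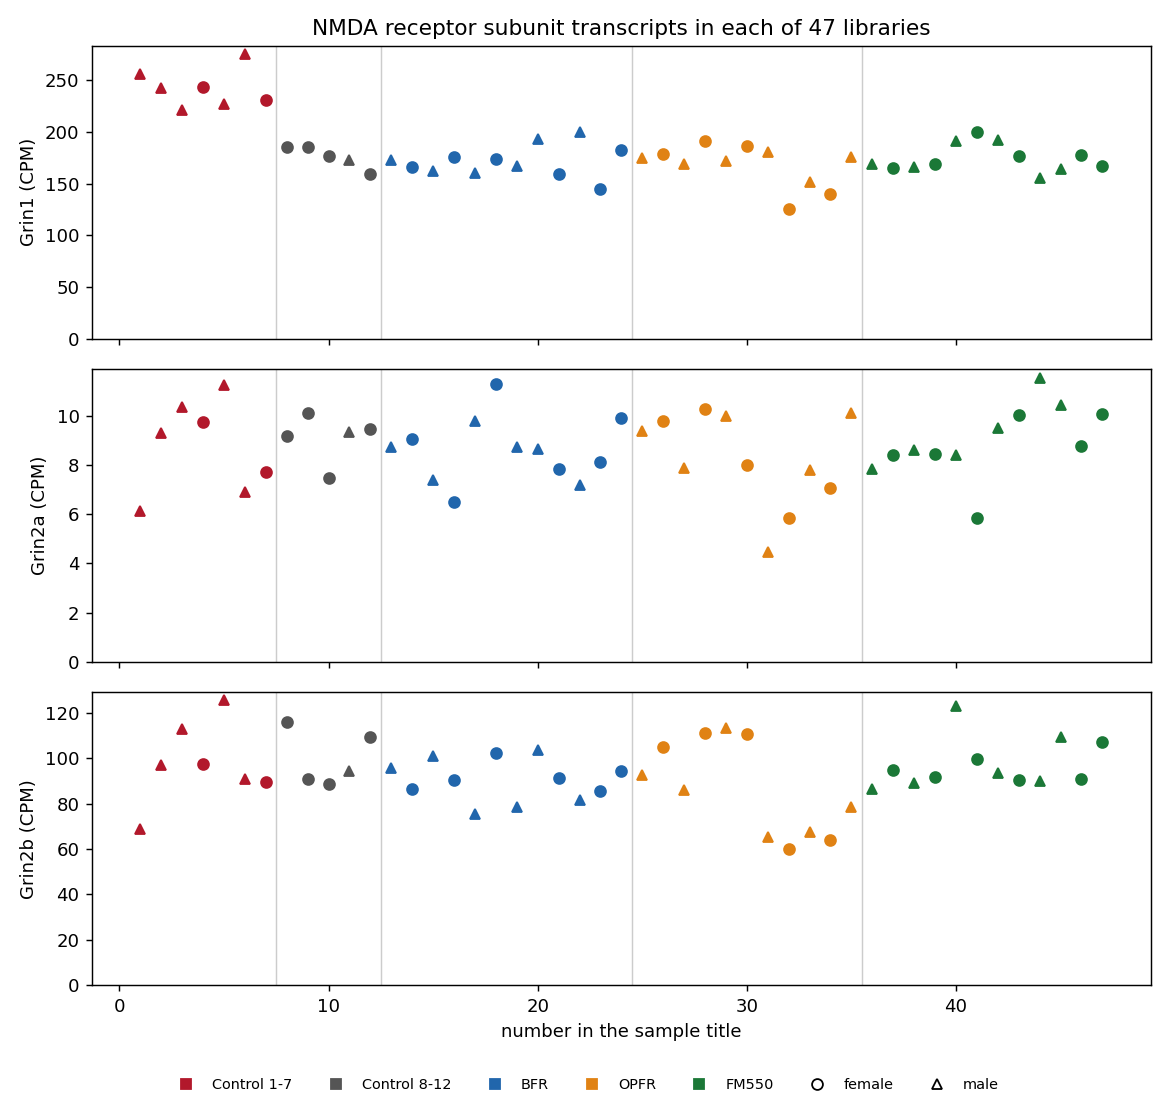
CPM of Grin1, Grin2a and Grin2b (vertical axes) in each library, in the order of the number in its title (horizontal axis); colour marks the treatment, with controls 1 to 7 apart from controls 8 to 12, circles are females and triangles males. Grin1 is at 221 to 276 CPM in controls 1 to 7 and at 126 to 200 CPM in all others, and Grin2b is at 59.9 to 78.5 CPM in OPFR libraries 31 to 35.

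Exposed pups had Grin1 levels close to those of controls 8 to 12. In BFR pups the lowest, median and highest libraries were 145, 170 and 200 CPM. In OPFR pups they were 126, 175 and 191 CPM. In FM550 pups they were 156, 169 and 200 CPM. These ranges overlap each other and enclose all of controls 8 to 12. By mean, the order was controls 1 to 7, controls 8 to 12, FM550 (174.6 ± 13.5 CPM), BFR (171.5 ± 15.1 CPM) and OPFR (167.9 ± 20.4 CPM), as mean ± SD with n = 12, 12 and 11 for the exposed. The first step, of 66.3 CPM, was 3.50 times the larger SD of its neighbours, and each later step was at most 0.20 of it.

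Set against all 12 controls, Grin1 fell with each exposure averaged over the sexes. The log2 fold change was -0.32 ± 0.07 (SE) with BFR, or 19.9% lower at an adjusted p of 0.00260 in edgeR's quasi-likelihood test. It was -0.35 ± 0.07 with OPFR (edgeR adjusted p = 3.99e-04) and -0.29 ± 0.07 with FM550 (edgeR adjusted p = 0.00454). Of the 3 subunit genes, only Grin1 was called in these 3 comparisons. Calls of a lower level made up 7.18% of all genes under BFR, 9.02% under OPFR and 2.97% under FM550, and the median log2 fold change of all genes lay at 0.0077, 0.010 and 0.0012. The 3 comparisons share their controls, so they are not separate evidence.

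The fall was not called once controls 1 to 7 were given a term or left out. That set was found in these data, and all 7 lie above every other library in Grin1, so a smaller fall was bound to follow. These fits give its size and are no separate test. With a term for those libraries in the model, the Grin1 log2 fold changes became -0.04 ± 0.08 (BFR), -0.08 ± 0.08 (OPFR) and -0.02 ± 0.08 (FM550), none of them called (SE; edgeR adjusted p = 0.999, 0.707 and 0.999). With the 7 libraries left out they were -0.02 ± 0.09, -0.06 ± 0.09 and -0.0033 ± 0.0864. The 95% intervals of these last 3 values reached from -0.20 to 0.15, from -0.24 to 0.11 and from -0.18 to 0.17. The pooled values lie below each of these intervals, but the pooled intervals, with upper ends of -0.18, -0.21 and -0.16, overlap them. The fits share libraries, so this is no test of one against the other. The fits without controls 1 to 7 hold only 1 control male. Over all genes the same comparisons had few calls or none in edgeR: 0%, 0.525% and 0% with the term (459, 1853 and 760 genes at an unadjusted p below 0.05) and 0%, 0.0222% and 0% without the libraries (349, 1883 and 597 genes).

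**Figure D2:**
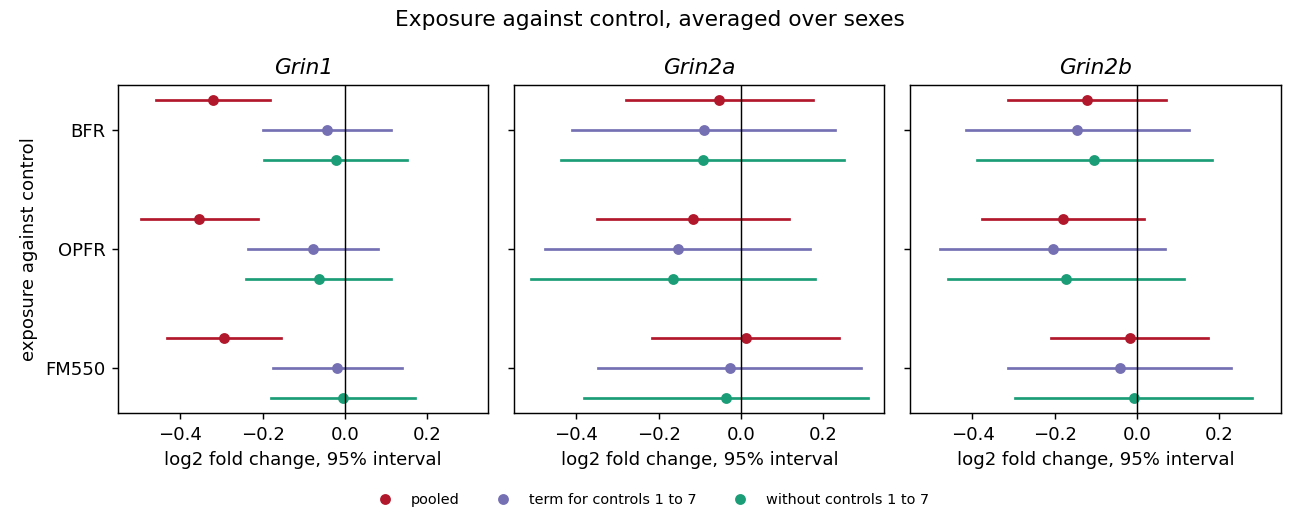
Log2 fold change of each subunit gene for each exposure against control, averaged over the sexes, as points with 95% intervals (horizontal axis), from the fit of all controls, the fit with a term for controls 1 to 7 and the fit without them. The pooled Grin1 intervals lie below 0 for all 3 exposures, and those of the other fits include 0.

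Taken by sex, the pooled Grin1 calls were in males, the sex with 5 of its 6 controls among numbers 1 to 7. Control males ranged from 173 to 276 CPM with a median of 235 CPM. The male log2 fold changes were -0.40 ± 0.10 with BFR, -0.45 ± 0.10 with OPFR and -0.43 ± 0.10 with FM550 (SE; edgeR adjusted p = 0.00721, 0.00194 and 0.00331). Lower calls made up 5.32%, 4.87% and 4.52% of all genes in these comparisons.

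In females, 2 of 6 controls belonged to the first set, and control females ranged from 160 to 243 CPM with a median of 186 CPM. The log2 fold changes of Grin1 were -0.24 ± 0.10, -0.26 ± 0.10 and -0.16 ± 0.10 for BFR, OPFR and FM550, none of them called (SE; edgeR adjusted p = 0.629, 0.148 and 0.999). Their 95% intervals reached from -0.43 to -0.04, from -0.47 to -0.06 and from -0.36 to 0.03. Those of BFR and OPFR thus lay below 0, without adjustment for the number of genes tested. Calls over all genes made up 0%, 3.1% and 0% here. In edgeR 1345, 3365 and 927 genes had an unadjusted p below 0.05, and DESeq2 made 2, 798 and 22 calls. The difference between the sexes was itself tested as an interaction and was not called for any exposure. For Grin1 the female minus male difference was 0.17 ± 0.14 (BFR), 0.19 ± 0.14 (OPFR) and 0.26 ± 0.14 (FM550) (SE; edgeR adjusted p = 0.956, 0.748 and 0.562). These interactions had 0 calls over all genes in edgeR. An unadjusted p below 0.05 was reached by 646, 1426 and 1560 genes, and DESeq2 made 3, 0 and 1 calls. Without controls 1 to 7, the male fold changes were 0.03 ± 0.15, -0.02 ± 0.15 and 0.0013 ± 0.1484, and the female ones were -0.07 ± 0.09, -0.11 ± 0.09 and -0.0079 ± 0.0887.

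Grin2a, which encodes the subunit of more mature synapses, did not share the step in the controls. It measured 6.15 to 11.2 CPM in controls 1 to 7, with a median of 9.32 CPM. Controls 8 to 12 measured 9.16, 10.1, 7.47, 9.35 and 9.47 CPM, inside that range. Means were 8.77 ± 1.89 CPM (SD, n = 7) and 9.12 ± 0.99 CPM (SD, n = 5). Among the means of the 5 sets, the highest was that of controls 8 to 12 and the lowest that of OPFR pups, 8.24 ± 1.90 CPM (SD, n = 11), with no step between neighbours above 0.19 of the larger SD. These levels rest on 264 to 753 Grin2a reads per library, the fewest of the 3 genes.

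Grin2a levels in exposed pups spread around the same values. The lowest, median and highest libraries were 6.48, 8.68 and 11.3 CPM with BFR, 4.46, 8.00 and 10.3 CPM with OPFR, and 5.86, 8.70 and 11.5 CPM with FM550. Against all controls, averaged over the sexes, the log2 fold changes were -0.05 ± 0.11, -0.12 ± 0.12 and 0.01 ± 0.11 (SE; edgeR adjusted p = 0.807, 0.516 and 0.971). The 95% intervals reached from -0.28 to 0.18 with BFR, from -0.35 to 0.12 with OPFR and from -0.22 to 0.24 with FM550. Changes of Grin2a within these bounds are not excluded by the data. No fold change of Grin2a was called in either sex, with values from -0.13 in OPFR females to 0.08 in FM550 males.

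Grin2b, which encodes the subunit that prevails around birth, was also at like levels in the 2 sets of controls. Controls 1 to 7 ranged from 68.8 to 126 CPM with a median of 97.0 CPM. Controls 8 to 12 measured 116, 90.7, 88.8, 94.2 and 109 CPM. Means were 97.5 ± 18.1 CPM (SD, n = 7) and 99.8 ± 12.1 CPM (SD, n = 5). The 2 sets overlapped.

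The lowest, median and highest Grin2b levels were 75.4, 90.9 and 104 CPM in BFR pups and 86.5, 92.6 and 123 CPM in FM550 pups. In OPFR pups they were 59.9, 85.8 and 113 CPM, the widest spread of the 4 treatments (SD 20.9 CPM, n = 11, against 9.32 CPM with BFR, 10.9 CPM with FM550 and 15.3 CPM in controls, n = 12 each). Averaged over the sexes, the log2 fold changes against all controls were -0.12 ± 0.10 with BFR, -0.18 ± 0.10 with OPFR and -0.02 ± 0.10 with FM550 (SE; edgeR adjusted p = 0.432, 0.191 and 0.941). By mean, the order of the sets was controls 8 to 12, controls 1 to 7, FM550 (97.2 CPM), BFR (90.6 CPM) and OPFR (86.7 CPM), and no step exceeded 0.62 of the larger SD of its neighbours. No fold change was called, and the intervals reached from -0.31 to 0.07, from -0.38 to 0.02 and from -0.21 to 0.17. Within females the values ran from -0.13 to -0.04 and within males from -0.23 to 0.0046, again with no call.

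The low end of Grin2b in OPFR pups was made up of 5 libraries. OPFR libraries 25 to 30 measured 92.5, 105, 85.8, 111, 113 and 111 CPM. OPFR libraries 31 to 35 measured 65.2, 59.9, 67.7, 63.9 and 78.5 CPM. Every one of the 5 lay below all 6 of the others, in both sexes. No overlap in that direction was found for 2.52% of genes (431 of 17135).

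In means, Grin2b was 67.0 ± 7.0 CPM in OPFR libraries 31 to 35 (SD, n = 5) and 103 ± 11 CPM in OPFR libraries 25 to 30 (SD, n = 6), a ratio of 0.651. Grin1 was lower on average with overlap, at 155 ± 23 and 178.9 ± 8.6 CPM, and so was Grin2a, at 7.07 ± 2.13 and 9.21 ± 1.04 CPM. The lowest Grin1 levels of all 47 libraries were those of OPFR females 4 and 5, at 126 and 140 CPM. The TMM factor moved with the whole set: it was 1.03, 1.10, 1.03, 1.06 and 1.00 in OPFR libraries 31 to 35, each above all 6 of OPFR libraries 25 to 30 (0.968 to 0.999). OPFR libraries 31 to 35 also had more gene IDs with reads, 20209 to 21413 against 19740 to 20651, with overlap. The part of either in these levels was not tested.

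Without OPFR libraries 31 to 35, the OPFR fold change of Grin2b against all controls turned from -0.18 to 0.05 and that of Grin2a from -0.12 to 0.04, and neither was called. Without OPFR females 4 and 5, which leaves 3 OPFR females, Grin2b in OPFR females was 0.14 above controls on the log2 scale in place of 0.13 below. In both cases libraries with low Grin2b were left out, so a rise was bound to follow. The Grin1 call for OPFR against all controls was kept without libraries 31 to 35, at -0.27, and without OPFR females 4 and 5, also at -0.27 (edgeR adjusted p = 0.0296 and 0.00987).

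The ratio of Grin2b to Grin2a was taken within each library, where it needs no scaling. It is a ratio of reads and not of transcripts, since no transcript lengths were used, and it serves only to compare libraries with each other. Over all libraries there were 10.9 ± 1.9 Grin2b reads per Grin2a read (SD, n = 47). In controls 1 to 7 the ratio ran from 10.0 to 13.2 with a median of 11.2. In controls 8 to 12 it was 12.6, 8.96, 11.9, 10.1 and 11.5, so the sets overlapped. Their means were 11.2 ± 1.0 (SD, n = 7) and 11.0 ± 1.5 (SD, n = 5).

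In exposed pups the lowest, median and highest ratios were 7.69, 10.7 and 14.0 with BFR. They were 7.75, 10.7 and 14.6 with OPFR and 7.80, 10.6 and 17.1 with FM550. Each of these ranges reached both below and above that of the 12 controls. Means were 10.7 ± 1.9 with BFR (SD, n = 12), 10.7 ± 2.1 with OPFR (SD, n = 11) and 11.1 ± 2.5 with FM550 (SD, n = 12). The order of the 5 sets by mean was controls 1 to 7, FM550, controls 8 to 12, BFR and OPFR, and each step in that order was at most 0.14 of the larger SD of its neighbours.

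**Figure D3:**
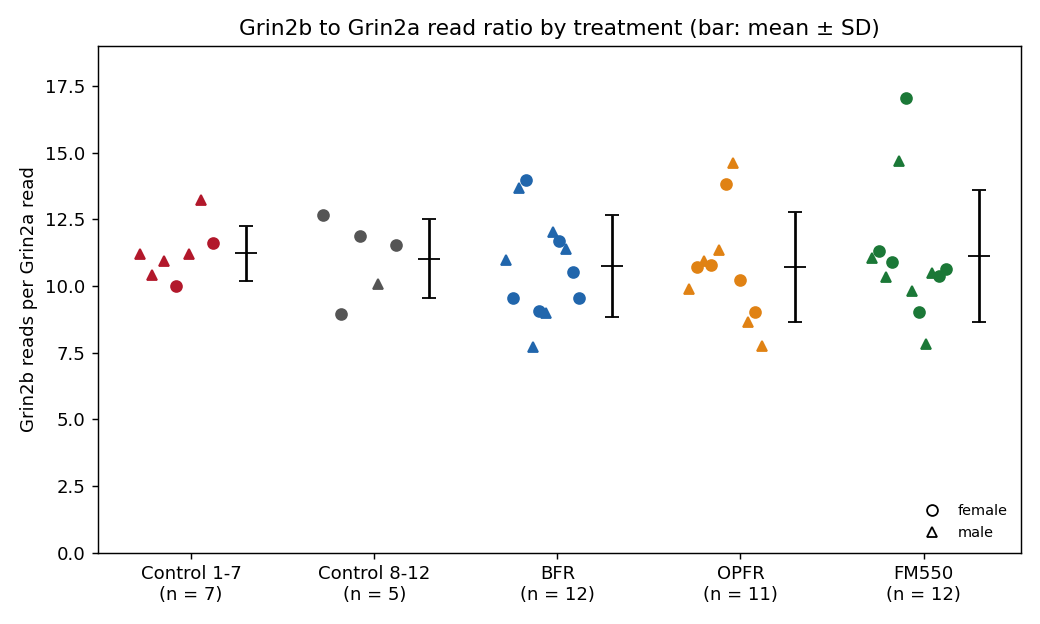
Grin2b reads per Grin2a read in each library (vertical axis) by treatment, with controls 1 to 7 apart from controls 8 to 12; circles are females, triangles males, and black bars the mean ± SD of the set. The sets overlap, with means between 10.7 and 11.2, and the highest point is FM550 female 3 at 17.1.

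No difference in the ratio was detected for any exposure. On the log2 scale, averaged over the sexes, the exposed minus control difference was -0.06 ± 0.09 with BFR, -0.07 ± 0.09 with OPFR and -0.02 ± 0.10 with FM550 (SE; two-sided permutation test within sex, p = 0.475, 0.459 and 0.818). Within a sex it ran from -0.11 in OPFR males to 0.04 in FM550 females (exact permutation test, p from 0.463 to 0.846). Among exposed groups the differences were -0.0049, 0.05 and 0.04 for OPFR against BFR, FM550 against OPFR and FM550 against BFR (permutation test, p = 0.966, 0.707 and 0.723). Adjusted over these 12 comparisons, the lowest p was 0.923. Without controls 1 to 7 the differences from control, averaged over the sexes, were -0.0015 (BFR), -0.0063 (OPFR) and 0.04 (FM550). In these averages the single control male weighs as much as the 4 control females. By sex the differences were -0.08, -0.05 and 0.02 in females and 0.07, 0.03 and 0.06 in males, so values near 0 partly reflect opposite signs.

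The log2 ratio had an SD of 0.24 over the 47 libraries, and the counting error of a single library's value was 0.056 to 0.092. Of the 3 highest ratios, 2 came from the libraries with the fewest Grin2a reads: 17.1 from FM550 female 3 (289 reads) and 14.6 from OPFR male 4 (264 reads). The other, 14.7, came from FM550 male 3 with 553 Grin2a reads. The lowest came from BFR male 3 (7.69), OPFR male 6 (7.75) and FM550 male 5 (7.80), with 646, 558 and 753 Grin2a reads. The SD of the log2 ratio was 0.14 in control males and 0.18 in control females, against 0.22 to 0.32 in the 6 exposed groups. Whether the spread differs was not tested.

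The number of Grin1 reads per read of a GluN2 gene was higher on average in controls 1 to 7, with overlap. There were 2.59 ± 0.65 Grin1 reads per Grin2b read in controls 1 to 7 (SD, n = 7) and 1.79 ± 0.25 in controls 8 to 12 (SD, n = 5). Per Grin2a read there were 29.2 ± 8.6 and 19.5 ± 2.6 (SD, n = 7 and 5). The highest value per Grin2b read, 3.73, was that of control male 1, which had the lowest Grin2b level of the 12 controls (68.8 CPM). OPFR libraries 31 to 35 had 2.10 to 2.78 Grin1 reads per Grin2b read, all above the 1.52 to 1.97 of OPFR libraries 25 to 30, while their mean Grin1 level was the lower of the 2. Per Grin2a read these 2 sets overlapped, at 17.3 to 40.6 and 17.2 to 23.3.

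Across the 40 libraries numbered 8 to 47, Grin2b was correlated with Grin1 and with Grin2a, while Grin1 and Grin2a were not detectably correlated. Log2 CPM of Grin1 and Grin2b had a Pearson r of 0.55 (permutation p = 3.30e-04, adjusted over 3 pairs 9.90e-04) and a Spearman rho of 0.39 (permutation p = 0.0141, adjusted 0.0211). Without the 2 libraries farthest from the Grin1 median, OPFR females 4 and 5, r was 0.31. For Grin2a and Grin2b r was 0.50 (permutation p = 0.00101, adjusted 0.00151) and rho 0.39 (permutation p = 0.0128, adjusted 0.0211), and r was 0.27 without the 2 libraries farthest from the Grin2a median, OPFR male 4 and OPFR female 4. Over the 35 libraries left without OPFR libraries 31 to 35, r was 0.32 for Grin1 with Grin2b and 0.19 for Grin2a with Grin2b, so both relations rested largely on that set. The permutations ran over all 40 libraries, across treatments, sexes and that set. The p-values of these correlations therefore do not tell a link between genes from a shift of that set. Grin1 and Grin2a had an r of 0.11 (permutation p = 0.487) and a rho of 0.07 (permutation p = 0.668), and r was -0.17 without OPFR females 4 and 5.

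**Figure D4:**
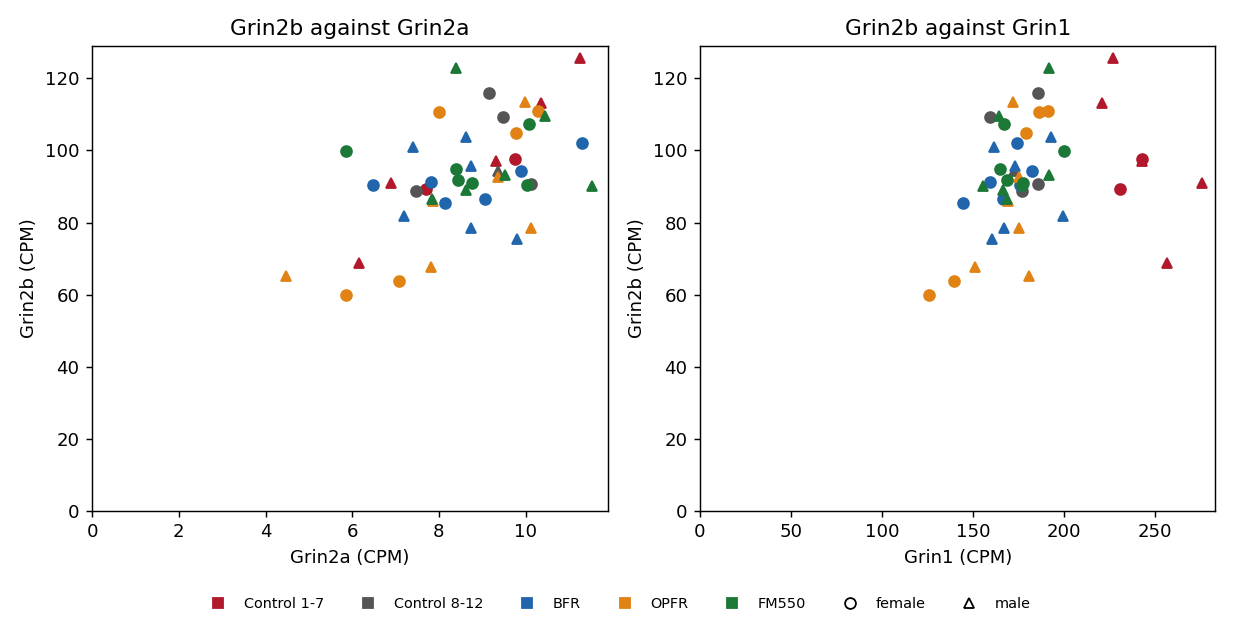
Grin2b (vertical axes) against Grin2a (left) and Grin1 (right), in CPM, 1 point a library; colour marks the treatment with controls 1 to 7 apart, circles are females and triangles males. Controls 1 to 7 lie to the right of all others on the Grin1 axis. On the other axes they lie among the others, except control male 4, the highest on the Grin2b axis at 126 CPM. The 5 OPFR libraries numbered 31 to 35 lie low on the Grin2b axis.

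The gene most like each member, by Pearson r of log2 CPM over the same 40 libraries among genes whose log2 CPM averaged 1 or more, is given by ID as a description. For Grin1 it was ENSRNOG00000020263 (r = 0.92). For Grin2a it was ENSRNOG00000013257 (r = 0.85) and for Grin2b ENSRNOG00000008425 (r = 0.90). ENSRNOG00000020263 measured 1210 to 1524 CPM in controls 1 to 7 and 794 to 1421 CPM in the others, so it overlapped where Grin1 did not.

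Compared directly, the exposed groups gave no call for any of the 3 genes, averaged over the sexes. OPFR against BFR gave log2 fold changes of -0.03 ± 0.07 for Grin1, -0.06 ± 0.12 for Grin2a and -0.06 ± 0.10 for Grin2b (SE; edgeR adjusted p = 0.822, 0.790 and 0.761). FM550 against OPFR gave 0.06 ± 0.07, 0.13 ± 0.12 and 0.16 ± 0.10 (edgeR adjusted p = 0.669, 0.566 and 0.367). FM550 against BFR gave 0.03 ± 0.07, 0.06 ± 0.11 and 0.10 ± 0.10 (edgeR adjusted p = 0.957, 0.927 and 0.824). Over all genes 4.75%, 0.00584% and 0.204% were called in these comparisons. In edgeR an unadjusted p below 0.05 was reached by 3783, 3070 and 1636 genes, and DESeq2 made 1129, 202 and 119 calls. In the same order, the 95% intervals for Grin1 reached from -0.17 to 0.11, from -0.08 to 0.20 and from -0.11 to 0.16. These comparisons hold no control library, so they cannot show a change shared by the exposed groups.

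Female and male pups, averaged over treatments, did not differ detectably in the 3 genes. The log2 differences, female against male, were -0.09 ± 0.05 for Grin1, -0.02 ± 0.08 for Grin2a and 0.03 ± 0.07 for Grin2b (SE; edgeR adjusted p = 0.999 for each). Here 0.128% of all genes were called, 584 genes reached an unadjusted p below 0.05 in edgeR, and DESeq2 made 28 calls. Controls 1 to 7, high in Grin1, hold 5 males and 2 females. The Grin1 difference was -0.03 with a term for them and -0.02 without them. The interactions of sex with exposure ran from -0.14 to 0.05 for Grin2a and from -0.04 to 0.10 for Grin2b, with no call.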

How the data were processed

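RNA of prefrontal cortex was sequenced in 47 libraries. Libraries were strand-specific and made from poly(A) RNA, per the labels' protocols. The authors deposited whole-number read counts per Ensembl gene ID with no normalization, in 1 table whose columns were matched to samples by title number. The tools named are FastQC, featureCounts and DESeq2, without versions, per the submitters' processing notes. No coordinates are printed, because the genome build, like the aligner and the strand setting, is not given in the sources used here. The 15 table entries that name no gene held no value.

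Tests used edgeR 4.0.16 (R 4.3.3): filterByExpr (minimum count 10, total 15; 17135 genes kept), TMM scaling, 1 quasi-likelihood fit with a mean for each of 8 groups, two-sided tests, and Benjamini-Hochberg adjustment over all genes tested, with calls below 0.05. Intervals are 95%. The ratio was tested by permuting labels within sex, with 100000 draws or exactly where fewer regroupings existed, and within 1 sex exactly. The fit was tested on simulated data. Alternatives were DESeq2 1.42.0, RLE factors, no filter, only the groups compared, a term for controls 1 to 7, and leaving out libraries. Nothing in the labels ties samples to animals or litters: a p-value here reflects spread among libraries, part of which may be technical. Mothers were dosed, so any libraries from the same litter would not be independent, and the tests take no account of this. Libraries were checked for copies and all differed (smallest chi-square per gene 8.63 over 1081 pairs).

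The members, lists and alternatives were chosen with earlier results of these data known. Named genes were the members and the 1 gene ID most like each. The RefSeq gene table (47357 genes) held 0 Ensembl IDs, so the lists of other NMDA and AMPA receptor subunits, postsynaptic scaffold and regulator genes, and cell type markers were not matched to IDs and not tested, and the labelled tissue was not checked against markers.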

Additional observations from a re-analysis of the deposited data

Results flagged for a closer look

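FM550 female 3 lay far from the other 5 FM550 females in 2 measures. Its Grin2b to Grin2a ratio was 17.1 against 9.01 to 11.3, and its Grin1 level was 200.3 CPM against 165 to 177 CPM. Control male 5 lay apart from the other control males in the ratio, at 13.2 against 10.1 to 11.2. These were 3 of 32 sets of a group and a measure, and chance alone flags about 1 set in 20.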

How the results depend on the processing

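The Grin1 calls for BFR, OPFR and FM550 against control, averaged over the sexes and in males, held under DESeq2, RLE factors, no filter, only the groups compared, and without any 1 library (edgeR adjusted p at most 0.0292 in the last). They ended with a term for controls 1 to 7 (log2 fold changes of -0.044, -0.077 and -0.018 averaged, and -0.015, -0.058 and -0.037 in males) and without those libraries (-0.023, -0.064 and -0.0033 averaged, and -0.021 in OPFR males). BFR and FM550 males turned to 0.028 and 0.0013 there. As controls 1 to 7 had the highest Grin1 levels, smaller falls were bound to follow in both cases.

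All other changes of direction under the alternatives run were in values not called under any of them. With the term, Grin2a for FM550 turned to -0.027, Grin1 in FM550 females to 0.0014 and Grin2b in FM550 males to -0.031. The sex interactions turned to -0.057 (Grin1, BFR), -0.038 (Grin1, OPFR) and 0.010 (Grin2a, OPFR). Without controls 1 to 7, Grin2a for FM550 turned to -0.036, and the sex interactions to -0.10 (Grin1, BFR), -0.053 (Grin2b, BFR), -0.086 (Grin1, OPFR), 0.041 (Grin2a, OPFR) and -0.0092 (Grin1, FM550). The log2 ratio of Grin2b to Grin2a turned to 0.040 (FM550), and in males to 0.073 (BFR), 0.034 (OPFR) and 0.061 (FM550). Grin2b in FM550 males turned to -0.00045 with RLE factors and -0.00050 in DESeq2.

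Without OPFR females 4 and 5, OPFR females turned to 0.060 (Grin2a), 0.14 (Grin2b) and 0.084 (ratio). OPFR against BFR turned to 0.051 (Grin1), 0.029 (Grin2a), 0.074 (Grin2b) and 0.052 (ratio), and FM550 against OPFR to -0.027 (Grin1) and -0.011 (ratio). The Grin2a interaction of sex with OPFR became 0.17, and the Grin2a difference of females from males 0.029. Without OPFR libraries 31 to 35, OPFR against control turned to 0.037 (Grin2a), 0.053 (Grin2b) and 0.014 (ratio), in females to 0.051, 0.13 and 0.084, and in males to 0.022 (Grin2a), with an interaction of 0.030 for Grin2a. OPFR against BFR turned to 0.048, 0.087, 0.17 and 0.078 for Grin1, Grin2a, Grin2b and the ratio, and FM550 against OPFR to -0.028, -0.029, -0.075 and -0.037. The cause of these changes was not tested.

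Leaving out 1 library at a time turned the direction of further uncalled values. Grin2a ranged from -0.11 to 0.047 (BFR females), -0.16 to 0.00065 (BFR males), -0.032 to 0.056 (FM550), -0.11 to 0.031 (FM550 females), -0.0058 to 0.16 (FM550 males), -0.19 to 0.016 (OPFR males), -0.047 to 0.0081 (sex), -0.033 to 0.14 (sex by BFR) and -0.14 to 0.077 (sex by OPFR). Grin2b ranged from -0.060 to 0.023 (FM550), -0.075 to 0.0065 (FM550 females), -0.080 to 0.087 (FM550 males), -0.049 to 0.12 (sex by BFR) and -0.13 to 0.039 (sex by FM550). The ratio ranged from -0.14 to 0.023 (BFR males), -0.018 to 0.084 (FM550 against BFR), -0.013 to 0.096 (FM550 against OPFR), -0.083 to 0.020 (FM550), -0.083 to 0.10 (FM550 females), -0.18 to 0.0038 (FM550 males), -0.055 to 0.036 (OPFR against BFR) and -0.12 to 0.036 (OPFR females).

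No paired analysis was possible because the labels give no replicate numbers shared between groups. A fit of only the groups compared was not run for female against male, which uses all groups. Without controls 1 to 7 the single control male is assumed to vary like the other groups, exact tests within males cannot go below p = 0.143, and small changes in males could not be detected.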
